A study of Homo sapiens with 12 samples.

Results

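CREG1, VAT1L, BEND4 and ZNF385D are 4 genes whose RNA was nearly absent, or for ZNF385D low, in one CD44 state of Hs578T breast cancer cells and plainly present in the other. They are 4 of the 58381 genes in the count table, and they were selected on the Hs578T counts themselves, so their Hs578T values are given below as a description, without a test. Tests were run on CREG1 and VAT1L in MDA-MB-231 cells, on the genes beside the 4 on the chromosome and on genes related to them. These values did not select the 4 genes, but the gene lists and tests were chosen with earlier results of these data known. BEND4 and ZNF385D were too low in MDA-MB-231 to be called.

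Both Hs578T and MDA-MB-231 are established triple negative breast cancer lines, and 3 libraries were made from each line in each state, 12 in all. CD44 is a cell surface receptor for the matrix polysaccharide hyaluronan. In the CD44 KO cells a doxycycline-inducible Cas9 and guides against CD44 had been introduced, and CD29-positive cells without surface CD44 were then sorted as a population, not as a single clone; the CD44 WT cells carried the same Cas9, received the transfection reagent without guides and were sorted as CD29-positive, CD44-positive cells. All cells were kept in low-serum medium before RNA was taken. The sources used here do not say if libraries of a group are separate cultures, so p-values measure the spread between these libraries, which may be technical. One MDA-MB-231 CD44 WT library carries no usable replicate number and is called the unnumbered library.

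The 12 libraries held between 10257586 and 19725543 counts each. CD44 itself was lower in every KO library than in every WT library of its line, at 27.3 ± 2.06 against 507 ± 17.6 CPM (counts scaled to a library of 1000000; mean ± SD, n = 3 libraries) in Hs578T and 34.2 ± 5.40 against 362 ± 1.70 in MDA-MB-231. Of the marker genes examined, the mesenchymal marker VIM was at 3730 CPM or more in all libraries, and the leukocyte marker PTPRC did not pass 4.81 CPM. The epithelial markers did not move as 1 group: EPCAM was at 0.0853 CPM or less in Hs578T and between 13.7 and 22.2 CPM in MDA-MB-231, KRT8 was at 517 to 596 against 270 to 412 CPM, KRT18 at 357 to 414 against 469 to 745 CPM, and CDH1 was at 0.971 CPM or less in both lines. The collagen gene COL1A1 lay between 2618 and 4088 CPM in Hs578T and between 7.48 and 13.4 CPM in MDA-MB-231. PDGFRB, also a fibroblast marker, lay between 47.6 and 71.7 and between 3.81 and 10.1 CPM. Of the receptor genes, PGR was at 0 CPM, ESR1 at 1.15 CPM or less and ERBB2 between 57.4 and 101 CPM over all libraries. Receptor protein was not measured here.

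The 4 genes encode unrelated kinds of protein. CREG1 is a secreted glycoprotein that reaches lysosomes through the mannose 6-phosphate receptor IGF2R and was named for opposing the transcriptional effects of the viral protein E1A. VAT1L is a little-studied relative of VAT1, a member of the quinone oxidoreductase family of enzymes. BEND4 carries a BEN domain, a fold that binds DNA in several repressors of transcription. ZNF385D belongs to a family of zinc finger proteins with matrin-type fingers.

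The genes lie on different chromosomes. On GRCh38, CREG1 (ENSG00000143162.7) spans chr1:167529677-167553767 on the minus strand, with 2688 nt of exon sequence in 6 merged exon blocks. VAT1L (ENSG00000171724.2) spans chr16:77788530-77980107 on the plus strand, with 4137 nt in 10 blocks. BEND4 (ENSG00000188848.15) spans chr4:42110938-42152878 on the minus strand, with 8765 nt in 6 blocks. ZNF385D (ENSG00000151789.10) is the longest, spanning chr3:21412222-22373321 on the minus strand, with 13621 nt in 23 blocks.

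The 250 bases before each RefSeq transcription start (GRCh38.p14, read 5′ to 3′ on the strand of the gene) are printed for the members. The members did not share a pattern in Hs578T: CREG1 and VAT1L were nearly absent in CD44 KO, BEND4 in CD44 WT, and ZNF385D was low in CD44 WT. A link between these sequences and the patterns was not tested. Capitals mark CpG dinucleotides, the sites of DNA methylation in human cells; methylation was not measured here. The windows are chr1:167553763-167554012 (minus strand) for CREG1, chr16:77788314-77788563 (plus) for VAT1L, chr4:42152656-42152905 (minus) for BEND4 and chr3:21751211-21751460 (minus) for ZNF385D. All 4 windows reach into the gene models used for counting. The ZNF385D window lies wholly inside its longer model, and most of the BEND4 window lies inside its model. For VAT1L and CREG1 only the end nearest to the start does.
CREG1: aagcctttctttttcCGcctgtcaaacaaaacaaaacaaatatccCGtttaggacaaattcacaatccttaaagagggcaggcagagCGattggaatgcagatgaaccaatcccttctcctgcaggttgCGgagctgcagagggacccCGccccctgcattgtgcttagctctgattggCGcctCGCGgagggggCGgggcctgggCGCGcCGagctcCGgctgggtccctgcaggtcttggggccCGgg
VAT1L: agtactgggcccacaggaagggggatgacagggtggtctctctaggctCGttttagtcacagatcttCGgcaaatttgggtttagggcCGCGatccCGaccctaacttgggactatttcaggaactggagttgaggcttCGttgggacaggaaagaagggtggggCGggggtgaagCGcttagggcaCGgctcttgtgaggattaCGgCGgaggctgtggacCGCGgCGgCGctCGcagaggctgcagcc
BEND4: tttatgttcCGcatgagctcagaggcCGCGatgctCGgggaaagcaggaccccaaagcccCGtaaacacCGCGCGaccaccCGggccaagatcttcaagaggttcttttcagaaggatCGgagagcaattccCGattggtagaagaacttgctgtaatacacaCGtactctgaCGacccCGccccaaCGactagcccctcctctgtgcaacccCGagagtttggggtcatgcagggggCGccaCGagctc
ZNF385D: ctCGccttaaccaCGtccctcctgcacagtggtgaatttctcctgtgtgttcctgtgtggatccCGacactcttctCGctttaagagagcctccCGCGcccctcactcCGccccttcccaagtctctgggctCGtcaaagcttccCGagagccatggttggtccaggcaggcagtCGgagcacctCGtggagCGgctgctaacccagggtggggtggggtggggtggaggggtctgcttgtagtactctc
The side of the window nearer to the start held 11 of 14 CpG in CREG1 and 11 of 16 in VAT1L, and 8 of 18 in BEND4 and 5 of 12 in ZNF385D. Counted over the whole 300-base promoter entry, which adds the first 50 transcribed bases, CREG1 held 21 CpG, VAT1L 19, BEND4 25 and ZNF385D 16, against a median of 14 over the 35116 promoters in the table. All 4 therefore lay above the median, and 52.5% (ZNF385D) to 68.0% (BEND4) of all promoters held fewer. The G and C share was 59.7% to 61.0%, against a median of 58.7%. Neither the TATA box letters TATAAA nor the letters CTCGCGAG, each searched on both strands and which cannot overlap, occurred in any of the 4 entries; 11.5% and 1.02% of all promoters hold them.

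CREG1 and VAT1L were expressed in CD44 WT Hs578T cells and nearly absent in CD44 KO cells. CREG1 was counted 423, 253 and 99 times in the 3 CD44 WT libraries (29.3, 20.8 and 8.38 CPM) and 0 times in each of the 3 CD44 KO libraries. Not a single read pair was assigned to CREG1 in the KO state, and taking the floor of 3 counts over the KO group, it was at least 272-fold lower there. That floor corresponds to 0.0742 CPM. The 3 WT libraries were themselves uneven, the highest being 3.50 times the lowest.

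VAT1L gave 161, 147 and 94 counts in the CD44 WT libraries of Hs578T (11.2, 12.1 and 7.96 CPM) and exactly 1 count in each CD44 KO library. Summed over the libraries, 402 counts stood against 3, a ratio of 141 with a 95% interval of 47.9 to 687 that covers counting error only. The WT libraries differed by 1.52 times from lowest to highest. In a bulk sample, fewer cells with the RNA and less RNA in each cell cannot be told apart.

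BEND4 and ZNF385D had the opposite pattern. BEND4 gave 0, 1 and 0 counts in the Hs578T CD44 WT libraries and 173, 297 and 160 in the CD44 KO libraries (13.9, 18.3 and 13.6 CPM). The sums, 630 against 1, gave a ratio of 599 whose counting interval ran from 107 to 23678, because the lower sum rests on a single count. The KO libraries lay within 1.34 times of each other.

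ZNF385D was not silent in the WT state. It gave 18, 22 and 7 counts in the Hs578T CD44 WT libraries (1.25, 1.81 and 0.592 CPM) and 270, 581 and 316 in the CD44 KO libraries (21.7, 35.8 and 27.0 CPM). The ratio of the sums was 23.6 (counting interval 17.6 to 32.3), the smallest of the 4, and with a WT mean of 1.22 ± 0.609 CPM (n = 3) the gene stayed above the 0.5 CPM under which a gene is called nearly absent here.

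Scaled by exon length, CREG1 in WT cells was the highest of the 4 in Hs578T at 7.26 ± 3.92 CPM per kb, VAT1L followed at 2.52 ± 0.525, and in KO cells ZNF385D stood at 2.07 ± 0.525 and BEND4 at 1.74 ± 0.300 CPM per kb (mean ± SD, n = 3). The libraries of the last 3 groups overlapped on this scale, so these 3 levels cannot be ordered. The length is that of all merged exons of a gene model, not of the transcripts expressed, which were not determined. Levels of different genes are therefore only roughly comparable.

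**Figure D1:**
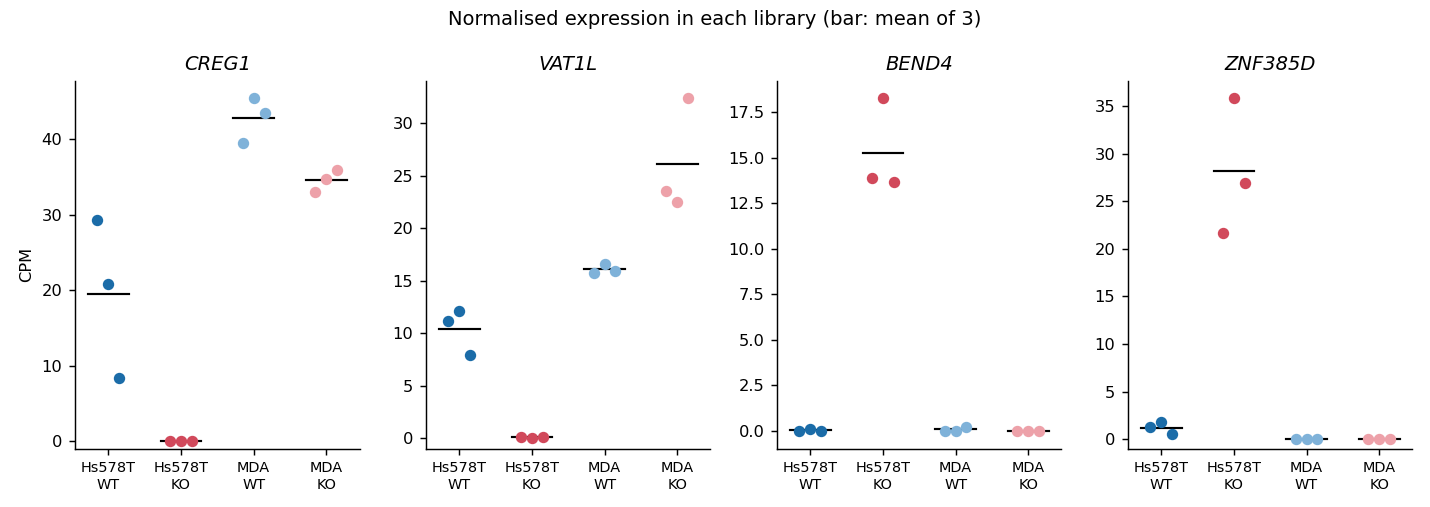
Expression of the 4 genes in CPM (vertical axis, a separate linear scale for each gene) in the 3 libraries of each group; points are libraries and bars the group means. In Hs578T, CREG1 and VAT1L sit at or near 0 in CD44 KO and BEND4 at or near 0 in CD44 WT, while in MDA-MB-231 CREG1 and VAT1L are present in both states and BEND4 and ZNF385D in neither.

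In MDA-MB-231 none of the 4 genes switched. CREG1 and VAT1L were expressed in both states, and BEND4 and ZNF385D in neither. Among the 15836 genes tested with edgeR's quasi-likelihood test, 4.62% were called changed by CD44 loss in MDA-MB-231 at a Benjamini-Hochberg adjusted p of 0.01 or less, and neither CREG1 nor VAT1L was among them; at an unadjusted p under 0.05, VAT1L passed and CREG1 did not. BEND4 and ZNF385D passed the filter on low counts only through Hs578T and were too low in MDA-MB-231 to be called.

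CREG1 was counted 460, 560 and 487 times in the MDA-MB-231 CD44 WT libraries (39.4, 45.4 and 43.4 CPM) and 390, 656 and 364 times in the CD44 KO libraries (33.0, 34.7 and 35.9 CPM). Every KO library lay below every WT library. The share of all genes separated in this way was not computed. The log2 fold change was -0.31 ± 0.277 (SE), with a 95% interval of -0.95 to 0.33 and an adjusted p of 0.555 by edgeR's quasi-likelihood test. The fit shares 1 estimate of the spread of a gene across all 12 libraries, and CREG1 was uneven among the Hs578T WT libraries: fitted on MDA-MB-231 alone, the log2 fold change was -0.29 ± 0.113 and the adjusted p 0.184, still not called. Whereas no CREG1 read was seen in Hs578T CD44 KO cells, MDA-MB-231 CD44 KO cells held 34.6 ± 1.46 CPM (n = 3), above the level of Hs578T CD44 WT cells.

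VAT1L was higher in the CD44 KO libraries of MDA-MB-231, short of the threshold. It gave 183, 205 and 179 counts in the CD44 WT libraries (15.7, 16.6 and 15.9 CPM) and 278, 425 and 328 in the CD44 KO libraries (23.6, 22.5 and 32.4 CPM). All KO libraries lay above all WT libraries, and the share of all genes separated in this way was not computed. The log2 fold change was 0.69 ± 0.162 (SE; 95% interval 0.32 to 1.07), and its adjusted p of 0.0124 by edgeR's quasi-likelihood test missed the threshold of 0.01. The direction was opposite to that in Hs578T, where every KO library lay below every WT library; this difference between the lines was not tested, because the gene was chosen on its Hs578T values. The call on VAT1L was close to the threshold and depended on the fit: the adjusted p was 0.00400 with DESeq2, 0.00578 without Hs578T CD44 WT replicate 3 and 0.0570 without MDA-MB-231 CD44 KO replicate 3.

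BEND4 was represented by 2 counts in the unnumbered MDA-MB-231 CD44 WT library and by 0 in the other 5 libraries of this line. ZNF385D had 0 counts in all 6, which allows up to 3 counts over a group, or 0.0852 CPM in WT and 0.0735 CPM in KO cells; the KO limit holds for BEND4 too. The mean of BEND4 in WT cells was 0.0594 CPM, and no fold change is given for either gene.

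Ordered by level, CREG1 was highest in MDA-MB-231 CD44 WT, then MDA-MB-231 CD44 KO, Hs578T CD44 WT and Hs578T CD44 KO, and no neighbouring groups in this order overlapped. VAT1L had the same order but for the MDA-MB-231 states, which were exchanged. How many of all genes had no overlap of this kind was not computed. BEND4 stood apart in Hs578T CD44 KO, and its other 3 groups overlapped at or near 0. ZNF385D was highest in Hs578T CD44 KO, then in Hs578T CD44 WT, and was at 0 in both MDA-MB-231 groups.

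The expressing libraries of Hs578T did not carry the genes evenly. CD44 WT replicate 3 was the lowest of the 3 WT libraries for CREG1 and VAT1L. Its CD44 level (501 CPM) lay between those of the other WT libraries (494 and 527 CPM), and its total count was 11328102. ZNF385D was also lowest in WT replicate 3, but WT is the low state of that gene and the value rests on 7 counts. To see whether other genes of the same kind were uneven too, a list was made. It held all genes with a group mean under 0.5 CPM in one CD44 state and of 5 CPM or more in the other. In Hs578T, 21 genes were nearly absent in KO and 12 nearly absent in WT; in MDA-MB-231 these numbers were 5 and 0. CREG1, VAT1L and BEND4 were on the Hs578T lists and ZNF385D was not.

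Of the 21 genes nearly absent in Hs578T CD44 KO, 19, or 17 of 19 without CREG1 and VAT1L, which prompted the count, were lowest in WT replicate 3, the exceptions being the transcription factor gene PAX2 and the selenium carrier gene SELENOP, both lowest in replicate 1. Over the 3157 tested genes in the same range of WT means (5 to 20.5 CPM), 42.2% were lowest in replicate 3. The coefficient of variation among the 3 WT libraries had a median of 46.4% over the 21 genes (range 10.4% to 80.0%), against 11.9% over the 3157 genes; without CREG1 and VAT1L it was also 46.4%. The cell surface proteoglycan gene GPC4 was at 32.7, 17.7 and 9.48 CPM in WT replicates 1, 2 and 3, and the guidance factor gene SLIT3 at 17.6, 8.72 and 2.45 CPM. The part of culture, sorting or library in this spread was not tested.

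The 12 genes nearly absent in Hs578T CD44 WT varied less. Their coefficient of variation among the 3 KO libraries had a median of 10.2%. It was 10.1% over the 3366 tested genes in the same range of KO means (5 to 21.7 CPM). Of the 12, 1, BEND4 itself, was lowest in KO replicate 3, against 31.6% of the 3366 genes. KO replicate 1 was lowest for 7 and replicate 2 for 4, for which the shares of the 3366 genes were not computed. For BEND4 the coefficient was 17.2%.

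**Figure D2:**
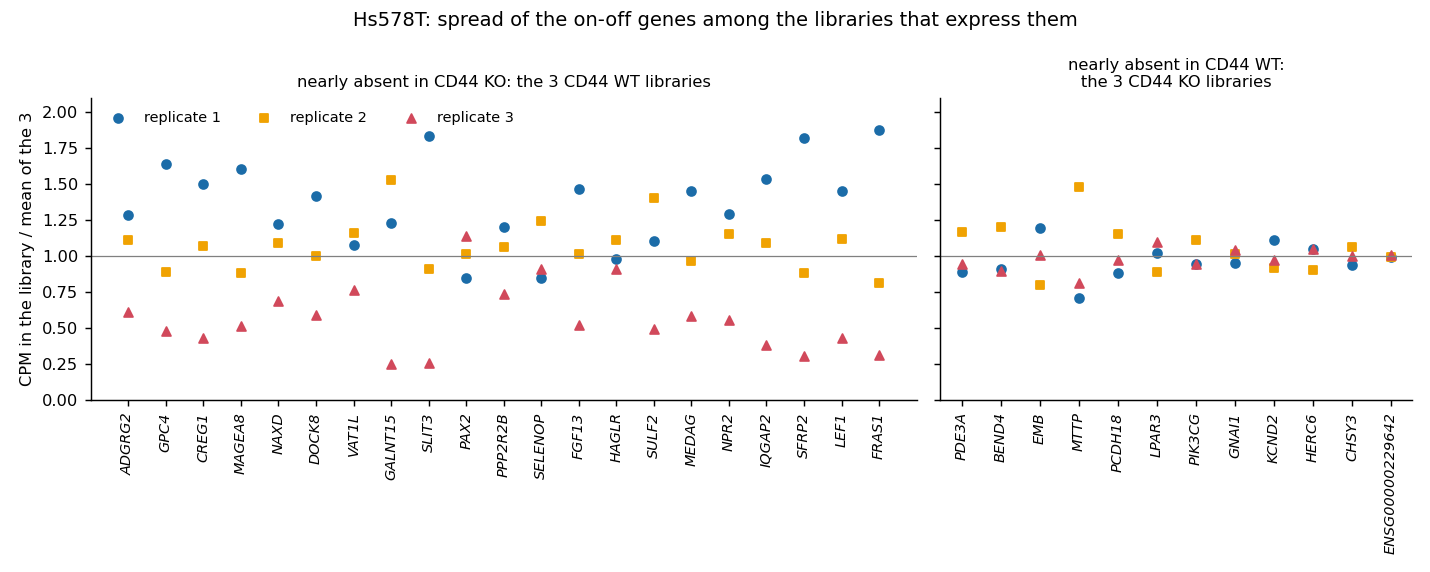
CPM of each Hs578T on-off gene in the 3 libraries of the state that expresses it, divided by the mean of those 3 libraries (vertical axis, no unit); the left panel holds the 21 genes nearly absent in CD44 KO and the right panel the 12 nearly absent in CD44 WT, ordered by mean level. Replicate 3 (triangles) is lowest for 19 of the 21 genes on the left, while the points on the right lie closer to 1.

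Ranked by mean level in WT, the first 5 of the 21 genes were ADGRG2 (20.5 ± 7.16 CPM), an adhesion G protein-coupled receptor gene, GPC4 (19.9 ± 11.8), CREG1 (19.5 ± 10.5), the cancer-testis antigen gene MAGEA8 (15.7 ± 8.72) and NAXD (12.2 ± 3.44), which encodes a repair enzyme for hydrated NADH. Only 0.182, 0.0284, 0, 0.0411 and 0.407 CPM were left of them in KO. Of the 21 genes, 9 reached 5 CPM in MDA-MB-231 in at least one state, CREG1, VAT1L and NAXD included. In the other direction the highest were PDE3A (21.7 ± 3.23 CPM in KO), a cyclic nucleotide phosphodiesterase gene, BEND4 (15.3 ± 2.63), EMB (8.32 ± 1.64), MTTP (7.86 ± 3.31) and PCDH18 (7.83 ± 1.07), and 5 of the 12 reached 5 CPM in MDA-MB-231.

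In MDA-MB-231 the 5 genes nearly absent in KO were GPC4 (11.8 ± 1.19 CPM in WT, 0.424 in KO), CTAG2 (9.09 ± 2.89), PRDM9 (5.53 ± 0.417), STXBP6 (5.35 ± 0.710) and SNHG18 (5.30 ± 1.61). GPC4 was the 1 gene on the KO-absent lists of both lines. CTAG2 and STXBP6, in contrast, were present in both states of Hs578T.

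The genes whose pattern over the 12 libraries was most like that of each member, by Pearson correlation of log2 CPM with a prior count of 2 came in part from the lists above. For CREG1 the closest were VAT1L (r = 0.989), the HOXD antisense RNA gene HAGLR (r = 0.988) and NAXD (r = 0.988). For VAT1L they were CREG1 (r = 0.989), the neuronal microtubule protein gene MAP2 (r = 0.989) and HAGLR (r = 0.986). The libraries share their group means, so these values mostly restate that the genes were absent in 3 libraries and present in 9.

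For BEND4 the closest were PPP1R2P10 (r = 0.993), ENSG00000224149 (r = 0.983) and LINC01097 (r = 0.982), a pseudogene and RNAs at 1.51 to 2.07 CPM in Hs578T CD44 KO and at 0.0788 CPM or less in the other groups. For ZNF385D they were the aminopeptidase gene ENPEP (r = 0.998), the neuronal transcription factor gene POU4F1 (r = 0.996) and IRAG2 (r = 0.996), all with 0 counts in MDA-MB-231. ENPEP, like ZNF385D, was low but present in Hs578T WT (1.04 ± 0.407 CPM) and high in KO (13.1 ± 2.35 CPM).

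Most genes around the members were not called changed by CD44 loss, which does not show that they were even. At an adjusted p of 0.05, 7 of the 40 neighbours passed in Hs578T. The share of all genes at that level was not computed. Neighbours at 0 counts in a line could not be called there. Taking the 5 nearest tested genes on each side of each member, 3 of 40 were called changed by CD44 loss in Hs578T, which is 7.5% and stands beside a background of 7.51% over all 15836 genes tested. The median log2 fold change of the 40 was 0.03, against 0.00 over all genes tested. In MDA-MB-231, 1 of 40 was called, which is 2.5% beside the background of 4.62%.

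The nearest tested genes beside the members were not called in Hs578T, except SHISA3. RCSD1 was low there (mean 0.416 CPM in WT and 0.688 in KO), so its not being called says little. CREG1 is flanked by POU2F1 (log2 fold change -0.08 ± 0.197 SE) and RCSD1 (0.76 ± 0.491), VAT1L by NUDT7 (-0.30 ± 0.298) and the large tumor suppressor candidate WWOX (-0.52 ± 0.131, adjusted p = 0.0139 by edgeR's quasi-likelihood test), and BEND4 by SLC30A9 (0.00 ± 0.132) on one side. ZNF385D is followed by SGO1, 1226 kb away on its lower-coordinate side (-0.14 ± 0.0842). Past the higher-coordinate end of the ZNF385D model used for counting, not near its RefSeq start, lies HMGB1P5 (-0.39 ± 0.0919, adjusted p = 0.0101 by edgeR's quasi-likelihood test). HMGB1P5 is a processed copy of HMGB1, and its reads may not be separable from those of the parent gene.

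The 3 called neighbours in Hs578T each lay 245 kb or more from the member. SHISA3, which encodes a membrane protein that holds back Wnt and FGF receptors and lies 245 kb above BEND4, gave 5, 5 and 4 counts in WT and 42, 91 and 41 in KO libraries. It rose with BEND4, by a log2 fold change of 3.50 ± 0.320 (adjusted p = 3.45e-06, edgeR's quasi-likelihood test). ATP8A1, the next gene on that side at 255 kb, was 1.03 ± 0.265 higher on the log2 scale and missed the threshold (adjusted p = 0.0155).

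MAF, a gene for a basic leucine zipper transcription factor 1.61 Mb above VAT1L, gave 71, 53 and 44 counts in WT and 2, 2 and 1 in KO libraries of Hs578T. It fell by 5.03 on the log2 scale (SE 0.399, adjusted p = 8.18e-07, edgeR's quasi-likelihood test). WWOX lies between VAT1L and MAF and was not called.

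ILDR2, 554 kb below CREG1, gave 15, 5 and 7 counts in WT and 0, 0 and 1 in KO libraries of Hs578T. The ratio of the sums was 28.4 with a counting interval of 4.68 to 1164, and the fitted log2 fold change was -4.36 ± 0.952 (adjusted p = 0.00591, edgeR's quasi-likelihood test). The call rested on few reads and was lost on leaving out any of 5 of the 6 Hs578T libraries, with adjusted p up to 0.0406; it held without WT replicate 2. With Hs578T fitted alone ILDR2 did not pass the filter on low counts.

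The 1 called neighbour in MDA-MB-231 was CNTNAP4, a neurexin-family gene 1.23 Mb below VAT1L, with 8, 10 and 10 counts in WT and 0, 0 and 1 in KO libraries. Its ratio was 32.4 (counting interval 5.36 to 1327) and its fitted log2 fold change -4.55 ± 0.617 (adjusted p = 0.000243, edgeR's quasi-likelihood test). In Hs578T, where VAT1L was lost, CNTNAP4 had a log2 fold change of 0.11 ± 0.172. It was under 1 CPM in all MDA-MB-231 libraries and was tested through its Hs578T level; with MDA-MB-231 fitted alone it did not pass the filter on low counts, and 0 of the neighbours were called.

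**Figure D3:**
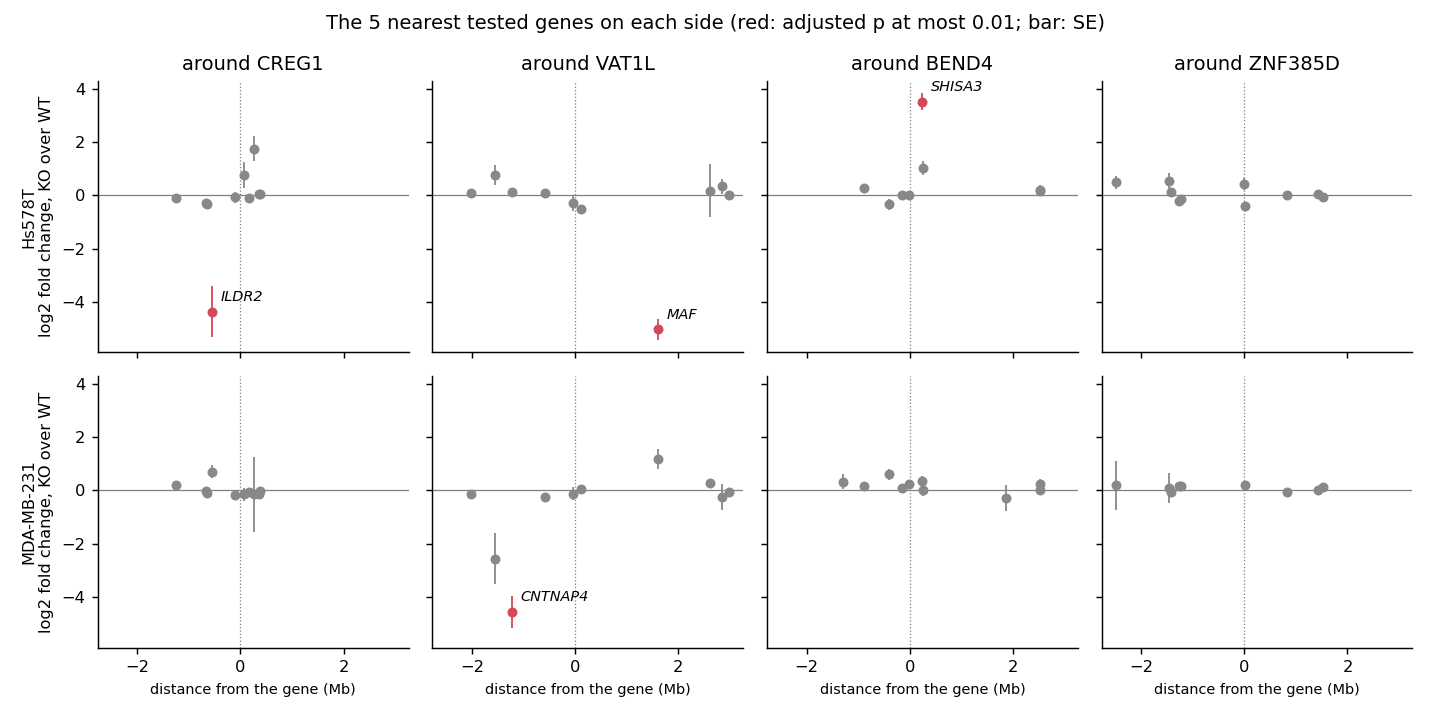
Log2 fold change after CD44 loss (KO over WT, vertical axis) of the 5 nearest tested genes on each side of each member, by distance from the member in Mb (horizontal axis), in Hs578T (upper row) and MDA-MB-231 (lower row); bars are SE and red points passed an adjusted p of 0.01. Genes without an SE, at 0 counts in that line, are not drawn. ILDR2, MAF and SHISA3 stand out in Hs578T and CNTNAP4 in MDA-MB-231.

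Genes that overlap the members gave little signal. ZNF385D-AS1, an antisense RNA gene inside ZNF385D, was counted 56, 55 and 64 times in WT and 70, 107 and 73 times in KO libraries of Hs578T (4.61 ± 0.770 and 6.15 ± 0.496 CPM). Its log2 fold change of 0.42 ± 0.213 was not called (adjusted p = 0.232, edgeR's quasi-likelihood test), and it was at 0 in all MDA-MB-231 libraries, as was ZNF385D. The antisense RNA was thus present in both Hs578T states, at 4.61 CPM even where ZNF385D had 1.22 CPM; counting was strand-specific. ENSG00000285454, which runs across the start of BEND4 on the opposite strand, had 5 counts in Hs578T CD44 KO and 0 in the other groups. ZNF385D-AS2 and ENSG00000278926, which lies inside VAT1L, had 0 counts in all groups, and the pseudogene PPIAP50, also inside VAT1L, had 1.

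Most relatives and partners of the 4 genes were not called changed by CD44 loss, which does not show that they were even. A list of 38 related genes was examined, of which 34 passed the filter on low counts, and 2 of 34 were called in each line (5.88%), against backgrounds of 7.51% (Hs578T) and 4.62% (MDA-MB-231). The median log2 fold change of the 34 was 0.06 for Hs578T and -0.07 for the MDA-MB-231 line. The effect of CD44 loss was also compared between the lines by a test of the difference itself. It differed for 3 of the 34 related genes (8.82%) and for 5 of the 40 neighbours (12.5%), against 4.12% of all genes tested. This test of the difference was not repeated under the alternatives.

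Around CREG1, 13 of 14 listed genes were tested: its receptor IGF2R, other parts of the mannose 6-phosphate route, lysosomal proteins and the E1A-linked factors RB1 and TBP. None was called in Hs578T, where IGF2R came nearest with 620 ± 31.5 CPM in WT and 878 ± 138 in KO (log2 fold change 0.50 ± 0.120, adjusted p = 0.0101 by edgeR's quasi-likelihood test). In MDA-MB-231 the lysosomal protease gene CTSD fell by 0.84 on the log2 scale (SE 0.160, adjusted p = 0.00332), from 224 ± 56.2 to 125 ± 23.6 CPM. The call was lost with MDA-MB-231 fitted alone (adjusted p = 0.0289) and without MDA-MB-231 CD44 KO replicate 1 (0.0187) or replicate 2 (0.0198). CREG2, the paralog of CREG1, was not tested, at 0.730 ± 0.159 CPM in Hs578T WT and 0.635 ± 0.136 in KO.

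Around VAT1L, all 9 listed members of its enzyme family were tested and 2 rose in Hs578T. Its nearest paralog VAT1 rose from 362 ± 53.4 to 549 ± 27.1 CPM (log2 fold change 0.60 ± 0.116, adjusted p = 0.00257 by edgeR's quasi-likelihood test), and PTGR2, a prostaglandin reductase gene, from 7.82 ± 0.373 to 12.8 ± 0.589 CPM (0.71 ± 0.140, adjusted p = 0.00285). Both rose where VAT1L was absent; no link between them was tested. The VAT1 call was lost without Hs578T CD44 WT replicate 1, KO replicate 1 or KO replicate 2 (adjusted p up to 0.0171), and the PTGR2 call without WT replicate 1, WT replicate 2 or KO replicate 2 (adjusted p up to 0.0176), so that neither was called without WT replicate 1 or KO replicate 2. None of the 9 was called in MDA-MB-231, where VAT1 was at -0.09 ± 0.117. PTGR3 came nearest there, at 0.35 ± 0.0796 (adjusted p = 0.0108 by edgeR's quasi-likelihood test). TP53I3 was at -0.53 ± 0.157 (adjusted p = 0.0450, same test).

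Around BEND4, 6 of 8 listed BEN domain genes were tested and none was called in Hs578T: BEND3 was at -0.35 ± 0.135, BEND6 at -0.13 ± 0.291 and BEND7 at -0.42 ± 0.172 on the log2 scale. In MDA-MB-231, BEND7 rose from 36.6 ± 6.10 to 59.5 ± 12.3 CPM (0.70 ± 0.150, adjusted p = 0.00740 by edgeR's quasi-likelihood test), a call lost under 11 of 21 alternatives. BEND2 and BEND5 were too low to test, with 4 and 5 counts in Hs578T WT and 0 and 5 in KO.

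Around ZNF385D, 6 of 7 listed genes were tested and none was called in either line. ZNF385A was at -0.10 ± 0.182 in Hs578T and 0.59 ± 0.197 in MDA-MB-231, ZNF385B at 1.12 ± 0.445 and 0.43 ± 0.344, and ZNF385C at -0.06 ± 0.510 and -1.96 ± 0.814. ZNF385B had the highest value of the family in Hs578T, but on 18 counts in WT and 41 in KO (adjusted p = 0.113, edgeR's quasi-likelihood test).

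**Figure D4:**
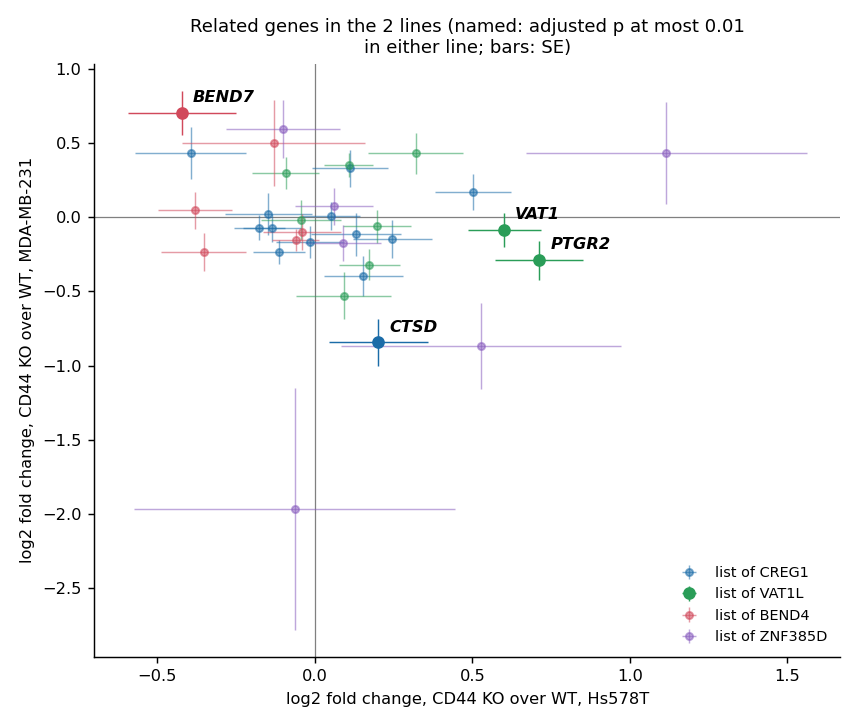
Log2 fold change after CD44 loss (KO over WT) of the 34 related genes in Hs578T (horizontal axis) and MDA-MB-231 (vertical axis), coloured by the member they are listed for; bars are SE, and the genes that passed an adjusted p of 0.01 in either line are named. VAT1 and PTGR2 lie to the right, CTSD below and BEND7 above the cluster around 0.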

How the data were processed

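The deposited values are raw counts: per the labels and the file header, the authors aligned stranded paired-end reads to GRCh38 with HISAT2 (2.1.0) and assigned read pairs to 58381 GENCODE genes with featureCounts (1.6.2), keeping pairs with both ends aligned, a mapping quality of 10 or more and the reverse strand. Pairs that align in several places mostly fall below this quality, which lowers counts of near-identical copies.

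Libraries were grouped by line and CD44 state from the labels. Genes of 300 nt or more with over 1 CPM in at least 2 libraries (15836) were tested with edgeR 4.0.16 (R 4.3.3, limma 3.58.1): TMM factors, 1 mean for each of the 4 groups over all 12 libraries, quasi-likelihood test, Benjamini-Hochberg adjustment over all genes tested, threshold 0.01. The study's methods were read as removing, not keeping, genes under 300 nt. CPM were computed with TMM factors. Intervals of log2 fold changes use the SE and a t distribution on the residual degrees of freedom of 12 libraries in 4 groups. The quasi-likelihood test uses more degrees of freedom, so these intervals are wider than its p-values imply. Intervals of ratios of summed counts are exact 95% binomial intervals; these and the floor of 3 counts cover counting error only. Total counts were 10257586 to 19725543, and a group floor was 0.0735 to 0.0852 CPM.

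The members, gene lists and tests were chosen with earlier results of these data known. Named genes were fixed by rule: the members, CD44, the nearest tested gene on each side, overlapping genes, called genes among the 5 neighbours on each side and among the related genes, paralogs, the 3 most alike genes and the first 5 on-off genes by level. ATP8A1, HMGB1P5, IGF2R, PAX2, PTGR3, SELENOP, SLIT3 and TP53I3 were added after their values were seen. Same-numbered replicates did not deviate together (correlation of residuals -0.0957 to 0.164), so no pairing was used. The library numbers in runs of 4, each with 1 library of every group, gave correlations of 0.00793 to 0.164, of which 3 of 6 passed 0.1; the labels do not call these runs batches. Alternatives included DESeq2 1.42.0, other scalings and filters, blocks and leaving out each library. The scripts were tested on simulated data. Promoter sequences are from RefSeq (GRCh38.p14), where all 4 members matched.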

Additional observations from a re-analysis of the deposited data

Results flagged for a closer look

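VAT1L differed in opposite directions in the 2 lines: in Hs578T all KO libraries were lower than all WT libraries, and in MDA-MB-231 all were higher (log2 fold change 0.69 in MDA-MB-231). This difference was not tested, because VAT1L was chosen on its Hs578T values. The share of all genes whose libraries separate in this way was not computed.

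For 5 neighbouring genes the effect of CD44 loss differed between the lines by edgeR's interaction test (Hs578T minus MDA-MB-231, log2 scale, Benjamini-Hochberg adjusted p of 0.01 or less, a level 4.12% of all genes tested reached). The difference was -6.21 for MAF (adjusted p = 8.20e-06), -5.06 for ILDR2 (adjusted p = 0.00362) and 4.66 for CNTNAP4 (adjusted p = 0.000305). SHISA3 differed by 3.13 (adjusted p = 9.17e-05): in MDA-MB-231 it was expressed in both states, at 9.77 CPM or more in each library. HMGB1P5, the processed copy of HMGB1 beside ZNF385D, differed by -0.59 (adjusted p = 0.00862). ILDR2 in Hs578T (27 counts in WT against 1 in KO) and CNTNAP4 in MDA-MB-231 (28 against 1) rest on few counts.

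Of the related genes, 3 differed between the lines in the same test. CTSD differed by 1.05 (adjusted p = 0.00787), PTGR2 by 1.00 (adjusted p = 0.00387) and BEND7 by -1.12 (adjusted p = 0.00565). Their calls within a line were lost under some alternatives, and the test of the difference was not repeated under any.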

How the results depend on the processing

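Over all alternatives, 269 values kept their side of the threshold or moved little, none changed direction, 25 lost and 5 gained a call, and 41 moved. CREG1 in MDA-MB-231 was not called under any of 21 alternatives (log2 fold change -0.36 to -0.26, adjusted p 0.173 to 0.762). VAT1L in MDA-MB-231 stayed between 0.53 and 0.80 and passed its threshold with DESeq2 (0.71), without the filter on low counts (0.71), with library numbers as a block (0.68), without Hs578T CD44 WT replicate 3 (0.69) and at an adjusted p of 0.05 (0.69); leaving out each library gave 0.53 to 0.80. With the replicate block, over the 11 numbered libraries, it was 0.69 (adjusted p = 0.0629), CREG1 was -0.34, and 1 related gene was called in MDA-MB-231 in place of 2, BEND7 being lost; replicate numbers did not pair the libraries. With library numbers as a block the adjusted p of VAT1L was 0.00540, and BEND7 lost its call (0.0108).

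Neighbours called in Hs578T (3 of 40) became 5 with DESeq2 and 7 at an adjusted p of 0.05. They were 2 to 6 on leaving out each library, 6 without MDA-MB-231 CD44 WT replicate 1. With 10 genes on each side they were 5 of 80, a lower share (6.25% in place of 7.5%). Neighbours called in MDA-MB-231 (1 of 40) became 3 without the low-count filter and 0 with each line fitted alone. They were 3 of 80 with 10 genes on each side (3.75%) and 0 of 26 within 1 Mb. Related genes called in Hs578T (2) became 4 with each line alone, 4 at an adjusted p of 0.05 and 0 to 4 on leaving out each library: 0 without Hs578T CD44 WT replicate 1 or KO replicate 2, 1 without WT replicate 2 or KO replicate 1, and 4 without MDA-MB-231 CD44 WT replicate 1. Those in MDA-MB-231 (2) became 4 without the low-count filter, 0 with each line alone, 4 at 0.05 and 0 to 2 on leaving out each library: 0 without KO replicate 2, and 1 without any of Hs578T WT replicate 2, the 3 Hs578T KO libraries, MDA-MB-231 WT replicates 1 and 3 and KO replicate 1. The counts of related genes are out of 34. Apart from the wider windows, which use the main fit, the share of all genes called under each alternative was not computed. A higher count is therefore not a result about these genes. The cause of these changes was not tested.

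The Hs578T log2 ratio of BEND4 (9.23) was 7.09 to 9.30 on leaving out each library; 7.09 is a bound, since no WT count remains without replicate 2. On-off genes in Hs578T (21 absent in KO, 12 in WT) became 7 and 2 with at most 3 counts over the group, 74 and 59 with presence from 2 CPM and 7 and 2 from 10 CPM; in MDA-MB-231 (5 and 0) they became 0, 38 and 1 for genes absent in KO, and 5 for genes absent in WT from 2 CPM. With a prior count of 0.5, 1 of the 3 genes most like BEND4 was shared, and 2 of 3 for each other member. Depth limits BEND4 and ZNF385D in MDA-MB-231, both at or under the floor.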
